A study of Mus musculus with 28 samples.

Results

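Total bone marrow mononuclear cells (MNCs) of mice with 2 wild-type Flt3 alleles were compared with those of mice carrying the Flt3 internal tandem duplication (Flt3-ITD). The libraries were chosen by their labelled population and genotype, and they are 8 of the 28 libraries of the series, 4 from Flt3+/+ and 4 from Flt3-ITD mice. The other 20 libraries hold endothelial cells (ECs) and mesenchymal stromal cells (MSCs) of the same genotypes. All mice are labelled C57 BL6, and by the methods of the study they were 8 to 10 wk old and Flt3-ITD means homozygous Flt3 ITD/ITD. The cells came from bone-lining preparations, each library was made from 200 sorted cells by SMARTer cDNA amplification of polyadenylated RNA. Each library stands for 1 mouse by the description of the study, and shared litters are not named. The ITD is a knock-in at the germline Flt3 locus, so every blood and marrow cell of these mice carries it. The table lists 25251 genes, and 13926 of them had enough reads in the 8 libraries to be tested.

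FLT3 is the receptor tyrosine kinase for FLT3 ligand, and in normal marrow it is expressed on early multipotent and lymphoid progenitors and on the precursors of dendritic cells. An internal tandem duplication lengthens the juxtamembrane region and makes the kinase signal without ligand, strongly through STAT5, and such duplications are among the commonest mutations of acute myeloid leukemia. On its own, the knock-in causes a chronic myeloproliferation in mice. MNCs are a mixture of maturing neutrophils, monocytes, B lineage cells, nucleated red cells and a small share of progenitors, so a level in these libraries depends on the mix of cells as well as on each cell. In bulk RNA, fewer cells of a type and less RNA per cell cannot be told apart.

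The blood identity of the libraries was plain. Ptprc (CD45, the pan-leukocyte phosphatase) lay at 146.48, 134.65, 124.93 and 130.82 RPKM (read counts divided by transcript length and by the mapped reads in each library) in Flt3+/+ replicates 1 to 4, and at 125.76, 156.87, 160.84 and 156.37 in Flt3-ITD replicates 1 to 4. The neutrophil elastase gene Elane lay at 652.18, 1005.78, 149.3 and 576.28 RPKM in Flt3+/+ and 2005.8, 615.38, 1577.84 and 1461.01 in Flt3-ITD, and Prtn3 (proteinase 3) between 60.97 and 373.46 over all 8. Of 20 endothelial and stromal genes, 8 had enough reads to be tested, and the endothelial cadherin gene Cdh5 was at 0.17 to 1.43 RPKM. Flt3-ITD replicate 2 stood out for Cxcl12 (25.87 RPKM) and Ibsp (9.14) of this list, which were at most 1.33 and 0.05 in the other libraries. The part of stromal cells in that library was not tested. The libraries held 14260910 to 22149240 counts and 16786 to 17970 detected genes. The 10 most abundant genes took 16.36 to 23.82% of the counts in Flt3+/+ and 11.01 to 16.68% in Flt3-ITD. Because RPKM are not corrected for such shares, the edgeR tests used counts scaled by TMM (trimmed mean of M values).

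Replicates 1 and 2 stood apart from replicates 3 and 4 in both genotypes. Fos, an immediate-early transcription factor gene that is induced within minutes of stress, was at 322.67 and 238.81 RPKM in Flt3+/+ replicates 1 and 2 and at 10.38 and 8.06 in replicates 3 and 4. In Flt3-ITD, Fos was at 316.87 and 141.57 RPKM in replicates 1 and 2 and at 15.58 and 4.24 in replicates 3 and 4. Between the pairs, with genotype in the fit, 26 genes (0.187%) passed edgeR's quasi-likelihood test at an adjusted p below 0.1, among them 10 of the 23 immediate-early genes tested. The labels name no batch, and what set the pairs apart was not tested. Values within each pair are given below for the lists and genes that differed most between pairs. The division was drawn after the values were seen, so p-values that use it describe these libraries and do not test a planned comparison.

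Socs2 and Lbh were the 2 genes called between genotypes, both higher in Flt3-ITD (0.0144% of the genes tested; edgeR, adjusted p below 0.1 and at least 1 on the log2 scale of mean RPKM). Socs2, a STAT5-induced feedback inhibitor of cytokine receptors, was at 1.2, 1.86, 0.26 and 1.06 RPKM in Flt3+/+ and at 16.41, 12.21, 18.37 and 18.27 in Flt3-ITD. All 4 Flt3-ITD libraries lay above every Flt3+/+ library. Socs2 rose by 3.72 ± 0.44 on the log2 scale (edgeR, SE, n = 4 and 4, adjusted p = 0.0779). Lbh, a transcription cofactor gene of limb bud and heart development, was at 1.55, 1.65, 1.19 and 1.73 RPKM in Flt3+/+ and 11.3, 11.6, 13.6 and 6.31 in Flt3-ITD. It rose by 2.62 ± 0.31 (edgeR, adjusted p = 0.0779), again with no overlap. Socs2 lies at chr10:95383903-95417321 and Lbh at chr17:72918305-72941946 (GRCm38). The difference in replicates 1 and 2 was 3.22 for Socs2 and 2.85 for Lbh, and in replicates 3 and 4 it was 4.32 and 2.38. The calls themselves were near the threshold. Leaving out a library gave 0 or 1 call by edgeR, and the 1 call without Flt3-ITD replicate 3 was neither of these genes. With an immediate-early covariate there were 0 calls by edgeR. By DESeq2 255 genes were higher (1.74%) and 202 lower (1.38%) at an adjusted p below 0.1.

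Flt3 itself was at 6.96, 6.74, 2.53 and 2.72 RPKM in Flt3+/+ and 6.91, 14.81, 10.95 and 10.72 in Flt3-ITD. The RPKM overlapped, but on the TMM scale every Flt3-ITD library lay above every Flt3+/+ library. The log2 difference was 1.06 ± 0.33 and did not pass (edgeR, adjusted p = 0.415). An exact permutation test on RPKM, two-sided, gave p = 0.0571, where 0.0286 is the smallest that 4 against 4 can give. By DESeq2 the adjusted p of Flt3 was 0.0889. Gene-level counts do not separate wild-type from duplicated transcripts, so the level of Flt3 does not check the genotype labels.

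**Figure D1:**
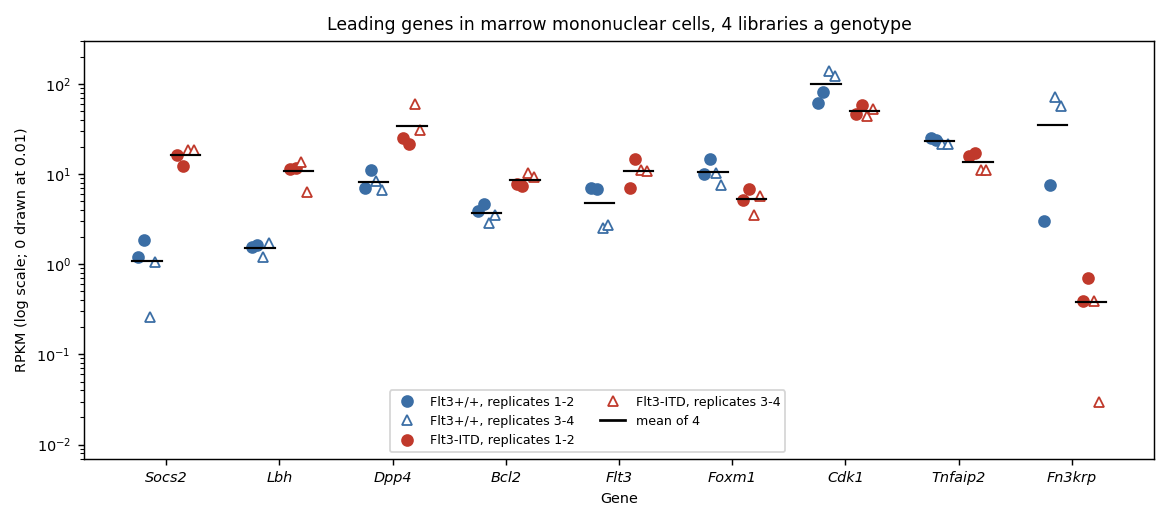
RPKM on a log axis of 9 genes in the 8 MNC libraries, with Flt3+/+ in blue, Flt3-ITD in red, replicates 1 and 2 as filled circles, replicates 3 and 4 as open triangles and the mean of 4 as a line. Socs2, Lbh, Dpp4 and Bcl2 are higher in every Flt3-ITD library, and Foxm1, Cdk1, Tnfaip2 and Fn3krp are lower in every Flt3-ITD library. Flt3 overlaps on this RPKM scale but not on the TMM scale.

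Beyond the calls, 751 genes were higher (5.39%) and 696 lower (5%) in Flt3-ITD at an unadjusted p below 0.05. The list counts at that level below are to be read beside these shares. RPKM ranges of the genotypes did not overlap for 797 genes higher (5.72%) and 137 lower (0.984%). On the TMM scale the same count was 448 higher (3.22%) and 350 lower (2.51%), so the split between directions depended on the scale. The 12 higher and 15 lower genes of the next 4 paragraphs did not pass edgeR after adjustment and are given by their values. All of them passed DESeq2, at adjusted p of 9.46e-07 to 0.0264. They were picked on these libraries for small edgeR p and non-overlapping RPKM, so neither the DESeq2 result nor the lack of overlap is separate support.

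Among the genes with the smallest p that were higher were Bcl2, Dpp4 and Upk1b. Bcl2, the anti-apoptotic founder of its family, was at 3.84, 4.68, 2.85 and 3.48 RPKM in Flt3+/+ and 7.67, 7.35, 10.35 and 9.25 in Flt3-ITD, a log2 difference of 1.08 ± 0.20 (edgeR, adjusted p = 0.345). The difference was 0.97 in replicates 1 and 2 and 1.18 in replicates 3 and 4. Of 14 Bcl2 family genes tested, Bcl2 alone was past an unadjusted p of 0.05, and the median was 0.06. Dpp4, the CD26 peptidase that trims chemokines such as CXCL12, was at 7.04, 11.04, 8.27 and 6.65 RPKM against 24.81, 21.23, 59.1 and 30.37, a log2 difference of 1.84 ± 0.34 (edgeR, adjusted p = 0.345). Upk1b, a tetraspanin gene best known from urothelium, was at 0.82, 1.17, 0.04 and 0.05 RPKM against 6.64, 13.43, 39.28 and 15.2. Its difference was 3.34 in replicates 1 and 2 and 8.73 in replicates 3 and 4 (edgeR, adjusted p of the difference between pairs = 0.0829).

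The remaining genes of this kind had log2 differences between 1.24 and 1.86. They were Pisd-ps3, Tmem181b-ps, Ttc17, Bex6, Cmtm3, Paip1, Ccdc91, Fam46a and BC064078. Pisd-ps3 (log2 difference 1.46) and Tmem181b-ps (1.86) are pseudogenes. Their counts are uncertain, because the authors discarded reads without a unique position. Cmtm3, a gene of the chemokine-like MARVEL family, was at 4.99 to 10.49 RPKM in Flt3+/+ and 18.68 to 38.29 in Flt3-ITD. Paip1, which binds poly(A)-binding protein in translation initiation, was at 4.73 to 10.15 against 13.12 to 23.38 RPKM.

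Several of the genes that were lower with the smallest p act in cell division. Foxm1, the transcription factor that drives G2 and M phase genes, was at 9.95, 14.58, 10.17 and 7.55 RPKM in Flt3+/+ and 5.21, 6.89, 3.55 and 5.67 in Flt3-ITD, a log2 difference of -1.17 ± 0.25 (edgeR, adjusted p = 0.397). Cenpn (kinetochore, -1.02), Cdkn3 (a CDK phosphatase, -1.12), Ccna2 (cyclin A2, -0.91) and Anln (anillin, the cytokinetic ring, -1.15) belong to the same programme. Ell2, a transcription elongation factor of antibody-secreting cells, was at 6.63, 10.75, 4.3 and 9.94 against 3.2, 3.12, 1.76 and 3.33 RPKM, and Tnfaip2, a TNF-induced gene, at 21.3 to 25.2 against 11.07 to 17.03. Log2 differences of 1190002F15Rik, Pla2g12a, mKIAA0217, Ppp1r15b, Fam63b and Sept1 lay between -1.95 and -0.64.

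A pair of genes had very uneven Flt3+/+ values. Fn3krp, a kinase that repairs sugar-modified proteins, was at 3.04, 7.53, 71.13 and 57.25 RPKM in Flt3+/+ and 0.39, 0.7, 0.39 and 0.03 in Flt3-ITD. Its genotype difference was -3.26 in replicates 1 and 2 and -8.55 in replicates 3 and 4 (edgeR, adjusted p of the difference between pairs = 0.0911). Flt3+/+ replicates 3 and 4, where Fn3krp was highest, also had the most erythroid RNA. Hba-a2 (alpha globin) was at 47.56 RPKM in Flt3+/+ replicate 1, and at 6049.48 and 11508.29 in Flt3-ITD replicates 1 and 2. The part of red cells in the Fn3krp values was not tested. Upp1, uridine phosphorylase, was at 30.1, 2.35, 7.45 and 7.05 against 0, 0.74, 0.39 and 0 RPKM.

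**Figure D2:**
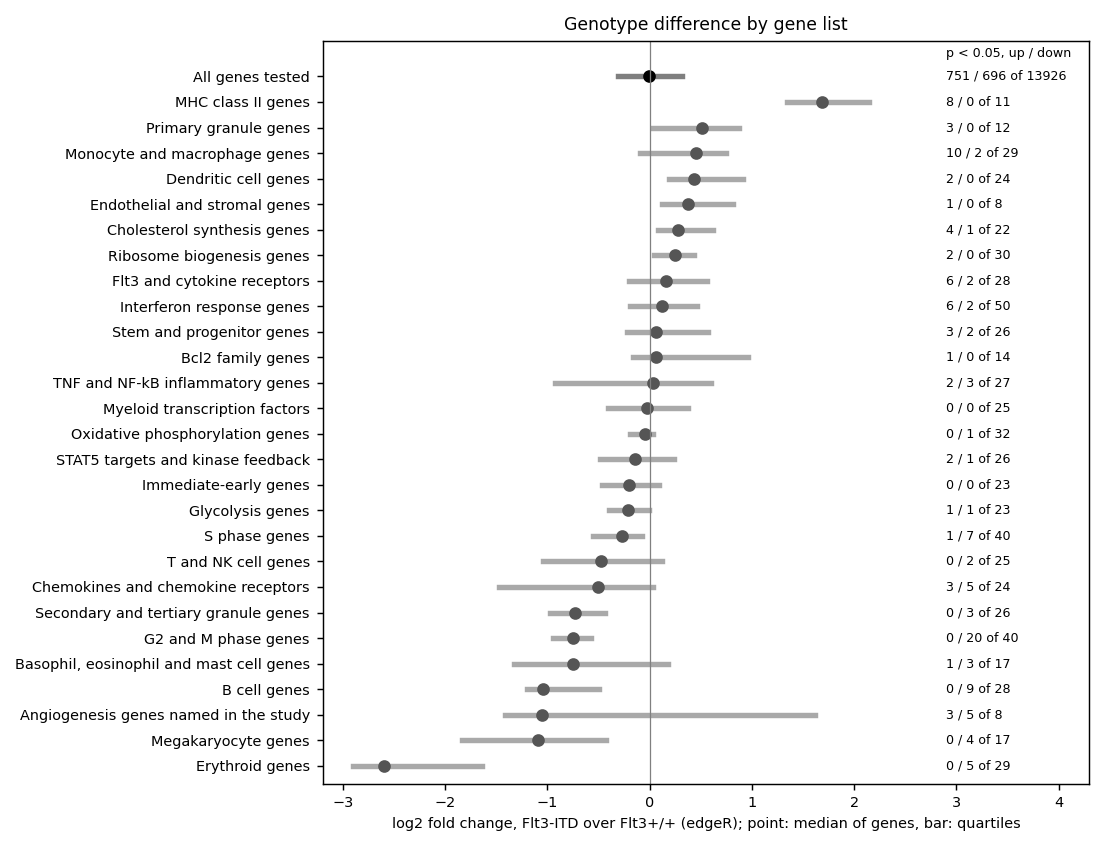
Log2 fold changes (edgeR, Flt3-ITD over Flt3+/+) of the tested genes in 27 lists, with the median as a point and the quartiles as a bar, and at the right the number at an unadjusted p below 0.05 in each direction. MHC class II has the highest median at 1.69, erythroid genes the lowest at -2.60, and all 13926 genes center on -0.01.

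Genes used as readouts of STAT5 and kinase feedback, Socs2 among them, had no common direction, with 12 higher and 14 lower on average. The median log2 difference of the 26 tested was -0.14, beside -0.01 for all genes, with 2 higher and 1 lower at an unadjusted p below 0.05. Cish, a close relative of Socs2 in function and a classical STAT5 target, was at 1.67, 2.91, 5.7 and 6.17 RPKM in Flt3+/+ and 5.49, 3.11, 8.21 and 3.76 in Flt3-ITD. Pim1, a STAT5-induced kinase, was at 1.72 to 7.96 against 2.13 to 9.05. Ccnd2 (cyclin D2) was at 9.48, 18.17, 13.63 and 8.56 against 20.72, 15.96, 25.86 and 38.01 RPKM, a log2 difference of 0.87 ± 0.31 (edgeR, adjusted p = 0.419). Spred2, an inhibitor of RAS to ERK signaling, was at 0.9 to 1.92 against 0.32 to 1.41. In RefSeq promoters (GRCm38, 250 bases before to 50 after the gene start), the STAT palindrome TTCNNNGAA was present in 3 of the 21 list genes matched (14.3%) and in 8.47% of all 27025 promoters, counted once per gene on the first listed promoter. For Lbh only the 150 bases before the start were searched, and they held none, so this is not on the same window as these shares.

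Of 28 cytokine receptor genes, 6 were higher and 2 lower at an unadjusted p below 0.05 (5.39% and 5% of all genes), with a median of 0.16. Il6st (gp130, the shared signaling chain of the interleukin 6 family) was at 5.42, 3.81, 1.98 and 1.27 RPKM in Flt3+/+ and 5.53, 7.12, 12.7 and 9.42 in Flt3-ITD. Il6ra, the interleukin 6 receptor, was at 3.54 to 5.77 against 5.78 to 10.41, and neither gene overlapped between genotypes. Il1r2, the decoy receptor for interleukin 1 on neutrophils, was at 137.15, 66.63, 206.46 and 181.57 against 75.18, 90.41, 21.64 and 14.1 RPKM. Its difference was -0.29 in replicates 1 and 2 and -3.84 in replicates 3 and 4, and these differed (edgeR, adjusted p = 0.0647).

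MHC class II genes, which present peptide antigen to CD4 T cells and mark dendritic cells, B cells and activated monocytes, had a median log2 difference of 1.69 over 11 genes. All 11 were higher on average in Flt3-ITD, 8 at an unadjusted p below 0.05. At an adjusted p below 0.1, 0 passed by edgeR and 4 by DESeq2 (H2-DMb1, Ciita, H2-DMa and H2-DMb2). H2-Aa was at 297.79, 496.91, 113.86 and 700.87 RPKM in Flt3+/+ and 518.28, 753.49, 7125.9 and 499.31 in Flt3-ITD. Flt3-ITD replicate 3 was far above the other 7 libraries. The invariant chain gene Cd74 had the same shape, at 482.33 to 2140.01 RPKM in Flt3+/+, 18912.63 in Flt3-ITD replicate 3 and 1547.06 to 1936.72 in the other 3. H2-DMb1, which loads peptide, was higher in every Flt3-ITD library, at 25.66 to 53.3 against 58.19 to 312.03 RPKM (log2 difference 1.69 ± 0.48, edgeR, adjusted p = 0.397). Ciita, the master regulator of these genes, was at 0.26 to 1.34 against 1.15 to 10 RPKM. Without Flt3-ITD replicate 3 the median was 0.42 and 3 of the genes were at an unadjusted p below 0.05.

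Dendritic cell genes were mixed in that library. Cd209a, a lectin of monocyte-derived dendritic cells, was at 1997.17 RPKM in Flt3-ITD replicate 3 and at 141.58 to 272.02 in the other Flt3-ITD libraries, beside 25.53 to 144.44 in Flt3+/+. Over 24 dendritic cell genes the median was 0.43. The 2 higher at an unadjusted p below 0.05 were Cd209a and Flt3 itself, which also counts among the cytokine receptor genes. Without Flt3+/+ replicate 1, 8 were higher at that level. Itgax (CD11c) was at 0.74 to 3.87 against 2.66 to 11.35 RPKM, with the highest value in Flt3-ITD replicate 3. Clec9a (16.94) and Batf3 (10.61) were also highest there. The plasmacytoid marker Siglech was at 107.84, 67.09, 36.04 and 23.65 against 120.7, 114, 34.97 and 59.55. Flt3-ITD replicate 3 was the lowest of its genotype for Siglech, as it was for Irf8 (53.5), Tcf4 (12.73) and Cox6a2 (8.3). For Bst2, Ccr9 and Klk1 the lowest of the genotype was Flt3-ITD replicate 4, at 68.37, 2.5 and 3.07 beside 121.73, 3.79 and 5.47 in replicate 3. The part of dendritic cells in the MHC class II values was not tested.

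The class II promoters share an inverted CCAAT element, the Y box, read here as CTGATTGG. It was present on either strand in 4 of the 8 list genes matched (50%), in H2-Aa, H2-Eb1, H2-Eb2 and H2-Oa, and in 4.31% of all promoters. The 150 bases before the start of a pair of these genes are shown because both encode classical class II chains and hold the element. Their RPKM overlapped between genotypes, and both were highest in Flt3-ITD replicate 3. Capitals mark the element. It was chosen after the expression values were seen, and a match is a stretch of letters, not a measured binding site.
H2-Aa, chr17:34287824-34287973, - strand: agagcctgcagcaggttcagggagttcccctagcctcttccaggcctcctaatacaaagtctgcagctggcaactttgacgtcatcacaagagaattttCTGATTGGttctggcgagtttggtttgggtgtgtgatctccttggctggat
H2-Eb1, chr17:34305717-34305866, + strand: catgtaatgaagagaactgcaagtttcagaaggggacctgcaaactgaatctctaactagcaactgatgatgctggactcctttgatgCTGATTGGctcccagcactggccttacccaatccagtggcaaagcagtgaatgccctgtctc

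Monocyte and macrophage genes had a median of 0.45 over 29 genes, with 10 higher and 2 lower at an unadjusted p below 0.05. Cx3cr1, the fractalkine receptor of patrolling monocytes, was at 9.31, 16.27, 7.59 and 20.06 RPKM in Flt3+/+ and 25.43, 41.65, 76.76 and 48.24 in Flt3-ITD, with no overlap (log2 difference 1.63 ± 0.40, edgeR, adjusted p = 0.397). Mpeg1 (perforin-2) was at 18.51 to 53.81 against 59.37 to 101.6 RPKM. Csf1r, the receptor for macrophage colony-stimulating factor, was at 42.53, 37.78, 19.06 and 31.84 against 49.72, 51.61, 73.57 and 52.29. Ccr2, which lets inflammatory monocytes leave the marrow, was at 162.29 to 299.25 against 254.53 to 798.34. On average 21 of the 29 were higher and 8 lower. Fcgr4 was lower, at 27.8 to 38.53 against 8.41 to 28.11 RPKM, as was the integrin gene Itgam at 108.99 to 116.59 against 59.17 to 106.36. Neutrophils also express both, and their part was not tested. When Flt3-ITD replicate 3 was left out, 2 monocyte genes were higher at an unadjusted p below 0.05.

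**Figure D3:**
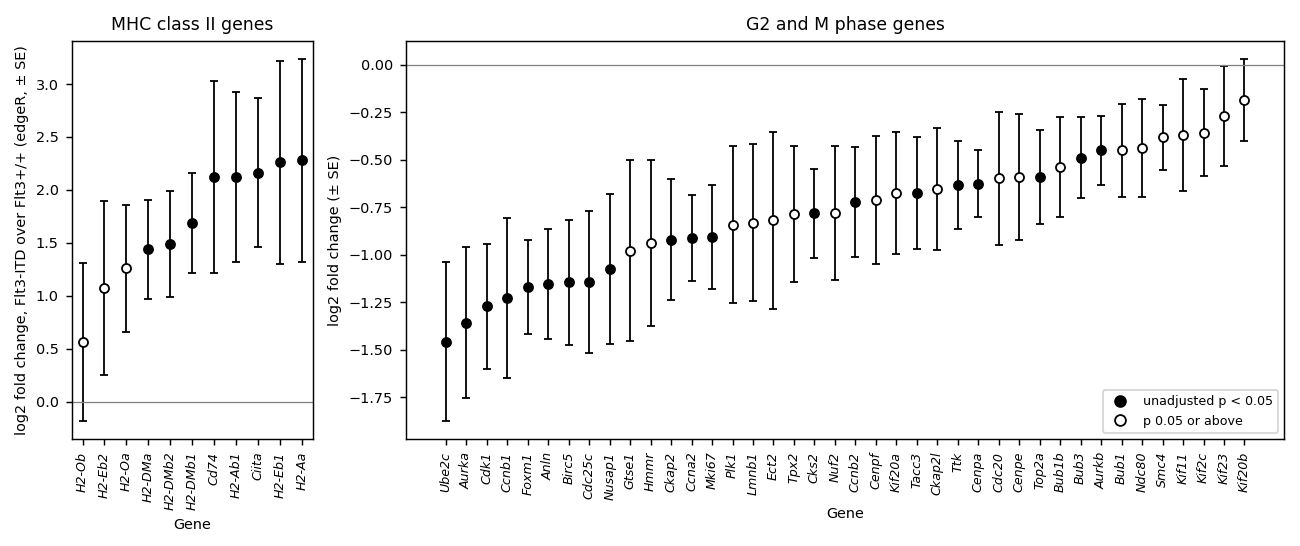
Log2 fold changes with SE (edgeR, Flt3-ITD over Flt3+/+, 4 against 4) of 11 MHC class II genes and 40 G2 and M phase genes, filled where the unadjusted p is below 0.05. All 11 lie above 0 and all 40 below 0, and 8 and 20 of them are filled.

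G2 and M phase genes were lower as a group. All 40 had a negative log2 difference, with a median of -0.75, and 20 were at an unadjusted p below 0.05, none of them higher. Cdk1, the kinase that starts mitosis, was at 60.96, 82.04, 138.29 and 121 RPKM in Flt3+/+ and 45.84, 58.75, 43.46 and 52.11 in Flt3-ITD, a log2 difference of -1.27 ± 0.33 (edgeR, adjusted p = 0.397). It was -0.44 in replicates 1 and 2 and -1.86 in replicates 3 and 4 (edgeR, adjusted p of the difference between pairs = 0.0947). Ube2c, a ubiquitin ligase partner of mitotic exit, was at 161.46, 269.48, 437.78 and 359.57 against 150.79, 196.7, 86.18 and 100.23. Mki67 (Ki-67) was at 40.31 to 73.87 against 27.31 to 50.7. The median was -0.22 in replicates 1 and 2 and -1.17 in replicates 3 and 4. Fitted alone, replicates 3 and 4 gave 20 of the 40 lower at an adjusted p below 0.1 (edgeR, 5.82% of all genes). Of the 40, 5 differed between the pairs at an adjusted p below 0.1, all in the negative direction (edgeR; 1.49% of all genes), and 17 at an unadjusted p below 0.05 (9.05% of all genes). Flt3+/+ replicates 3 and 4, where these genes were highest, also had the most erythroid RNA. The part of dividing red cell precursors was not tested. Without Flt3+/+ replicate 3, 13 genes, and without Flt3+/+ replicate 1, 31 genes were lower at an unadjusted p below 0.05.

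The S phase genes differed less. Of 40, 7 were lower and 1 higher at an unadjusted p below 0.05, with a median of -0.27. The number lower was 14 without Flt3+/+ replicate 1 and 2 without Flt3+/+ replicate 3. Rrm2, which makes deoxynucleotides, was at 251.16, 429.32, 737.96 and 540.92 RPKM in Flt3+/+ and 267.57, 264.58, 236.55 and 334.48 in Flt3-ITD. Hells, a chromatin remodeler, was the exception, at 7.36 to 16.43 against 14.79 to 33.51.

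Many genes of this phase share the element TTTGAA, the cell cycle genes homology region. It was present on either strand in 23 of the 32 G2 and M list genes matched (71.9%) and in 18.1% of all promoters. The 150 bases before the start of Cdk1 are shown as the example with a wide expression gap, and the capitals mark both copies. The element was chosen after the expression values were seen.
Cdk1, chr10:69352913-69353062, - strand: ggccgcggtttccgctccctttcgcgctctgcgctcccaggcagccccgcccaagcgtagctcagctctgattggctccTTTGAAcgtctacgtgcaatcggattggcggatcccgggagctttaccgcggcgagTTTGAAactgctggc

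B lineage genes were lower, with a median of -1.04 over 28 genes and 9 lower, none higher, at an unadjusted p below 0.05. Dntt (terminal transferase, which adds bases at immunoglobulin joints) was at 77.78, 57.67, 15.87 and 79.58 RPKM in Flt3+/+ and 13.29, 7.68, 9.98 and 31.69 in Flt3-ITD, a log2 difference of -2.09 ± 0.54 (edgeR, adjusted p = 0.397). Ebf1, the transcription factor that commits cells to the B lineage, was at 15.4, 28.43, 20.61 and 15.56 against 5.73, 11.23, 10.7 and 15.49. Vpreb1, part of the surrogate light chain of the pre-B cell receptor, was at 62.58, 85.18, 10.37 and 47.24 against 21.54, 6.21, 14.27 and 19.02. Il7r, the receptor B progenitors depend on, was at 16.7 to 20.77 against 4.93 to 17.27 RPKM. The medians of the B cell list were close in the pairs, at -0.96 in replicates 1 and 2 and -0.85 in replicates 3 and 4. Leaving out 1 library gave 6 (without Flt3+/+ replicate 2) to 12 (without Flt3-ITD replicate 4) such genes. T and NK cell genes had a median of -0.48 over 25 genes, with 2 lower and none higher.

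The granule genes of neutrophils were read in 2 lists by stage. Primary granule genes, which promyelocytes express, had a median of 0.51 over 12 genes with 3 higher at an unadjusted p below 0.05 and 6 without Flt3-ITD replicate 2. The median was 0.04 in replicates 1 and 2 and 1.09 in replicates 3 and 4. Mpo (myeloperoxidase) was at 344.6, 772.04, 299.66 and 602.79 RPKM in Flt3+/+ and 1515.66, 625.53, 2119.66 and 2187.62 in Flt3-ITD, a log2 difference of 1.48 ± 0.42 (edgeR, adjusted p = 0.397). Flt3-ITD replicate 2 lay within the Flt3+/+ range for Mpo. Elane, whose values are above, had a difference of 1.12 ± 0.49 and Cst7 (cystatin F) of 1.11 ± 0.33.

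Secondary and tertiary granule genes, which later neutrophil stages express, had a median of -0.73 over 26 genes, 25 of them lower on average. At an unadjusted p below 0.05, 3 were lower, 14 without Flt3-ITD replicate 1 and 0 (edgeR) without Flt3-ITD replicate 4. The values came apart by pair. S100a8, a subunit of calprotectin, was at 99274.79, 80338.77, 71242.28 and 66361.17 RPKM in Flt3+/+ and 76927.2, 70907.8, 15194.73 and 19292.26 in Flt3-ITD. Ngp (neutrophilic granule protein) was at 35753.25 to 45628.46 in Flt3+/+, at 45102.43 and 36093.1 in Flt3-ITD replicates 1 and 2, and at 12598.27 and 19872.85 in replicates 3 and 4. Mmp9 (gelatinase B) was at 173.46 to 236.59, 135.74 and 185.52, and 24.36 and 22.28 in the same order. Flt3-ITD replicates 1 and 2 lay in or near the Flt3+/+ range, and replicates 3 and 4 lay below it, for each of these genes.

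The list median was -0.02 in replicates 1 and 2 and -1.92 in replicates 3 and 4. Of the 26, 15 had a more negative difference in replicates 3 and 4 at an adjusted p below 0.1 (edgeR; 1.49% of all genes), and 24 at an unadjusted p below 0.05 (9.05%). For S100a8 the pairs differed by -2.16 ± 0.25 on the log2 scale (edgeR, adjusted p = 0.0293), and for Mmp9 by -3.11 ± 0.35 (edgeR, adjusted p = 0.0246). The pairs were set apart after the values were seen, so these p-values are descriptive. Over all genes 207 had a more negative and 57 (0.409%) a more positive genotype difference in replicates 3 and 4, and at an unadjusted p below 0.05 the numbers were 1260 and 818 (5.87%).

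Fitted alone, replicates 3 and 4 gave 379 genes higher (2.71%) and 813 lower (5.82%) at an adjusted p below 0.1, from 2 libraries against 2. Replicates 1 and 2 gave none by edgeR at that level, with 871 genes at an unadjusted p below 0.05. In replicates 3 and 4, 23 of the 26 secondary and tertiary granule genes fell, and 5 of the 12 primary granule genes rose and 1 fell.

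**Figure D4:**
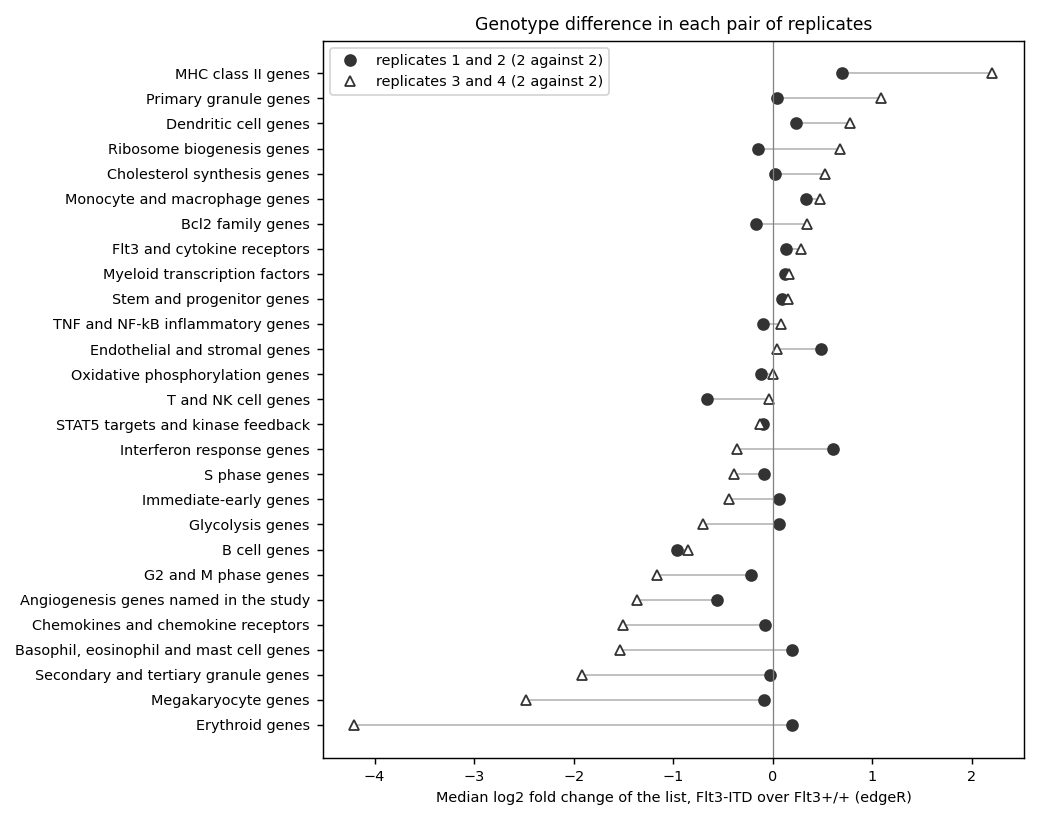
Median log2 fold change (edgeR, Flt3-ITD over Flt3+/+) of 27 gene lists, computed in replicates 1 and 2 (filled circles) and in replicates 3 and 4 (open triangles), 2 libraries against 2 in each. Secondary granule genes move from -0.02 to -1.92 and erythroid genes from 0.19 to -4.20, while B cell genes stay at -0.96 and -0.85.

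Erythroid genes had the lowest median, -2.60 over 29 genes, all 29 lower on average, 5 at an unadjusted p below 0.05. That count was 25 without Flt3+/+ replicate 1 and 0 (edgeR) without Flt3+/+ replicate 3. Hba-a2 (alpha globin) was at 47.56, 20284.8, 79278.72 and 71658 RPKM in Flt3+/+ and 6049.48, 11508.29, 1174.03 and 4767.85 in Flt3-ITD. Gata1, the erythroid master regulator, was at 0.03, 21.76, 74.9 and 82.05 against 9.73, 16.77, 1.47 and 3.75. Flt3+/+ replicate 1 was nearly without erythroid RNA and replicates 3 and 4 had the most, so the Flt3+/+ libraries enclosed the Flt3-ITD ones. The list median was 0.19 in replicates 1 and 2 and -4.20 in replicates 3 and 4. Fitted alone, replicates 3 and 4 gave 26 of the 29 lower at an adjusted p below 0.1 (edgeR, 5.82% of all genes). Of the 29, 1 differed between pairs at an adjusted p below 0.1 (1.49% of all genes). At an unadjusted p below 0.05, 13 did (9.05% of all genes).

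Megakaryocyte genes had a median of -1.10 over 17 genes, with 4 lower and none higher at an unadjusted p below 0.05. The median was -0.09 in replicates 1 and 2 and -2.48 in replicates 3 and 4. Of the 17, 2 differed between pairs at an adjusted p below 0.1 (edgeR; 1.49% of all genes). At an unadjusted p below 0.05, 8 did (9.05% of all genes), all in the negative direction. Cd9, a tetraspanin of platelets that other marrow cells also express, was at 345.29, 345.7, 400.43 and 393.05 RPKM in Flt3+/+ and 313.69, 301.09, 179.7 and 153.17 in Flt3-ITD. Its difference was -0.15 in replicates 1 and 2 and -1.66 in replicates 3 and 4 (edgeR, adjusted p of the difference between pairs = 0.0706). Of 17 basophil, eosinophil and mast cell genes, 3 were lower and 1 higher, with a median of -0.75 that was 0.10 without Flt3+/+ replicate 3. The median was 0.19 in replicates 1 and 2 and -1.54 in replicates 3 and 4. Hdc, which makes histamine, was at 46.49 to 179.65 against 15.91 to 75.37 RPKM. Its difference was 0.27 in replicates 1 and 2 and -3.74 in replicates 3 and 4 (edgeR, adjusted p of the difference between pairs = 0.0216).

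**Figure D5:**
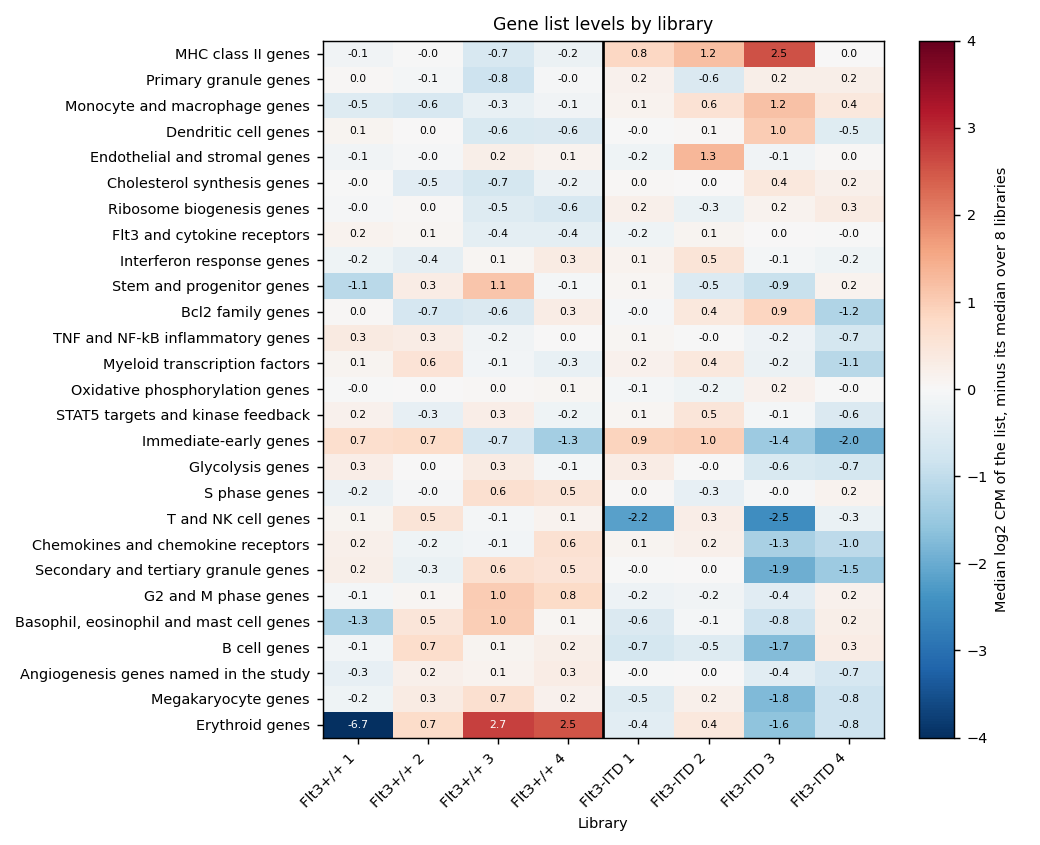
Median log2 CPM (counts scaled to a fixed library size) of each gene list in each library, minus the list's median over the 8 libraries, with red higher and blue lower and the color saturating at 4 either way. Erythroid genes run from -6.66 in Flt3+/+ replicate 1 to 2.73 in Flt3+/+ replicate 3, and secondary granule genes are at -1.94 and -1.46 in Flt3-ITD replicates 3 and 4.

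Stem and progenitor genes showed no common direction, with a median of 0.06. Of 26, 3 were higher and 2 lower at an unadjusted p below 0.05 (5.39% and 5% of all genes). Cd34, a surface marker of progenitors, was at 7.39, 12.56, 20.75 and 17.18 RPKM in Flt3+/+ and 40.41, 20.54, 34.23 and 78.38 in Flt3-ITD. Cd48, which marks multipotent progenitors and most leukocytes, was at 171.62 to 341.08 against 396.15 to 959.63 with no overlap. Cdk6, a cell cycle kinase of progenitors, was at 0.9, 2.87, 1.04 and 0.15 against 3.2, 2.91, 6.14 and 7.09. Lmo2, a partner of the stem cell and erythroid factor Tal1, was lower, at 33.09 to 47.97 against 23.64 to 32.99. Of 25 myeloid transcription factor genes, with a median of -0.03, 0 were past an unadjusted p of 0.05 by edgeR, and 0 were past an adjusted p of 0.1 by DESeq2.

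Interferon response genes had no common direction. Of 50, 6 were higher and 2 lower at an unadjusted p below 0.05 (5.39% and 5% of all genes), with a median of 0.12. Mx2, an antiviral GTPase, was at 2.5, 2.28, 0.46 and 2.2 RPKM in Flt3+/+ and 8.89, 6.23, 6.38 and 6.52 in Flt3-ITD, and Gbp3, a guanylate-binding protein, at 3.93 to 11.74 against 19.33 to 38.36. Isg20, an exonuclease, went the other way, at 21.84, 87.55, 238.84 and 221.87 against 36.69, 63.19, 12.15 and 19.49, its high values in the erythroid-rich Flt3+/+ replicates 3 and 4 (edgeR, adjusted p of the difference between pairs = 0.0895). The part of red cells in the Isg20 values was not tested. The median was 0.60 in replicates 1 and 2 and -0.36 in replicates 3 and 4. Of the 50, 5 differed between pairs at an adjusted p below 0.1, all in the negative direction (edgeR; 1.49% of all genes).

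Inflammatory genes of the TNF and NF-kB pathway had a median of 0.03 over 27 genes. At an unadjusted p below 0.05, 2 were higher and 3 lower (5.39% and 5% of all genes). Cd40, a costimulatory receptor of antigen-presenting cells, was at 1.67, 4.82, 1.7 and 2.76 RPKM in Flt3+/+ and 7.85, 8.2, 18.71 and 7.21 in Flt3-ITD, with no overlap. Tnfrsf1b, the second TNF receptor, was at 6.95 to 12.61 against 10.32 to 19.57. Of 24 chemokine and chemokine receptor genes, 3 were higher and 5 lower, with a median of -0.51. The median was -0.07 in replicates 1 and 2 and -1.5 in replicates 3 and 4. Of the 24, 4 differed between pairs at an adjusted p below 0.1, all in the negative direction (edgeR; 1.49% of all genes). Ccl4 was at 47.86, 23.03, 9.7 and 97.63 against 10.41, 7.71, 0.97 and 3 RPKM, and its receptor family member Ccr1 at 80.01 to 196.4 against 28.56 to 86.82.

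The angiogenesis genes that the study named from these MNCs were chosen on the same libraries, so their direction is no independent evidence. All 8 tested were at an unadjusted p below 0.05, 3 higher (Lbh, Dpp4 and Serpinf1) and 5 lower (Ccl4, Ccr1, Fpr2, Tnfaip2 and Foxm1), and Lbh alone passed by edgeR at an adjusted p below 0.1. By DESeq2 3 were higher and 4 lower at that level. Serpinf1, the gene of pigment epithelium-derived factor, was at 6.43, 9.53, 2.74 and 1.77 RPKM in Flt3+/+ and 15.58, 6.64, 21.45 and 21.78 in Flt3-ITD. Tnfsf15 and Pdgfd had too few reads to be tested.

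Metabolic and growth lists stayed closer to the center. Cholesterol synthesis genes had a median of 0.28 over 22, with 4 higher and 1 lower at an unadjusted p below 0.05. Hmgcs1, an early enzyme of the pathway, was at 19.89, 15.76, 15.08 and 14.5 RPKM in Flt3+/+ and 26.21, 26.92, 33.08 and 28.67 in Flt3-ITD, with no overlap. Ribosome biogenesis genes had a median of 0.25 over 30, at -0.15 in replicates 1 and 2 and 0.67 in replicates 3 and 4. Pes1, of the large-subunit assembly complex, was at 10.3 to 13.59 against 16.03 to 27.54. Glycolysis genes had a median of -0.21 over 23, at 0.07 in replicates 1 and 2 and -0.70 in replicates 3 and 4. Of the 23, 2 differed between pairs at an adjusted p below 0.1, in the negative direction (edgeR, 1.49% of all genes). Over 32 oxidative phosphorylation genes the median was -0.04, with 1 lower and none higher at an unadjusted p below 0.05. Immediate-early genes had a median of -0.20 between genotypes, with 0 of 23 past an unadjusted p of 0.05 by edgeR and 0 past an adjusted p of 0.1 by DESeq2. The 8 endothelial and stromal genes tested had a median of 0.38 with 1 higher, and the 5 sex-linked genes a median of 0.01.

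Socs2 was also compared with the other populations, by testing whether its genotype difference was unlike theirs. In ECs it was at 36.97 to 120.41 RPKM in Flt3+/+ and 54.68 to 100.1 in Flt3-ITD, and in MSCs at 30.47 to 46.84 and 27.25 to 54.1, so the wild-type MNCs had far lower levels. The difference between genotypes was greater in MNCs by 3.56 ± 0.50 than in ECs (edgeR over 28 libraries, adjusted p = 0.00329) and by 3.66 ± 0.50 than in MSCs (edgeR, adjusted p = 0.00214). Of the 16897 genes tested, 2 differed from ECs (0.0118%) and 1 from MSCs (0.00592%). The second against ECs was Serpinh1, a collagen chaperone, at a mean of 0.0125 and 0.303 RPKM in the MNC genotypes. For Lbh the corresponding differences were 3.29 ± 1.70 and 3.05 ± 1.69, and did not pass (edgeR, adjusted p = 0.654 and 0.971).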

How the data were processed

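Total RNA was measured by poly(A) RNA-seq in 28 libraries, and 8 (4 Flt3+/+ and 4 Flt3-ITD MNC libraries) were analyzed here. The authors aligned single-end reads with Bowtie to mm10 transcripts, discarded reads without a unique position and quantified genes with RSEM, so counts of pseudogenes and near-identical genes are uncertain; versions are not given in the sources used here. The deposited counts are whole-number read counts per gene, and the deposited RPKM values are scaled by the authors to transcript length and mapped reads, with no correction for composition. The labels do not tie a sample to an animal, and by the study's description each is 1 mouse, so p-values measure the spread between mice and libraries together.

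Counts were normalized by TMM, filtered by filterByExpr, leaving 13926 genes, and fitted in edgeR 4.0.16 (quasi-likelihood, biological coefficient of variation 0.484) under R 4.3.3. A gene was called at a Benjamini-Hochberg adjusted p below 0.1 with a log2 ratio of mean RPKM (pseudocount 0.01) of at least 1. The study accepted either DESeq2 or edgeR at these thresholds, and edgeR alone was used here. SE were the log2 difference over the root of F. Interactions were fitted over 28 libraries and 6 groups. DESeq2 1.42.0 and the edgeR exact test were alternatives. Scripts were tested on simulated counts. List scores used a prior count of 1.

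Named genes were Flt3, Ptprc, Elane, Prtn3, every called gene, the 15 higher and 15 lower of smallest p among genes whose RPKM did not overlap and averaged 5 or more in the higher genotype, and up to 4 members per list by smallest p. Results for some genes that this rule names are not reported here. Other genes were named after their values were seen. The members and the lists were chosen with earlier results of these data known. Libraries of the same replicate number had correlations of deviations between genotypes of -0.073 to 0.032. These cannot tell whether such samples shared litters or preparation, because a shared origin need not move most genes. In the column map, 0 columns were left unmapped. Promoters came from RefSeq, GRCm38.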

Additional observations from a re-analysis of the deposited data

Results flagged for a closer look

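Within a genotype, 12 of 128 groups of 4 values had a library whose gap to the nearest other was large for the range (Dixon's test); about 1 in 20 would do so by chance. In Flt3+/+ replicate 1, RPKM stood apart for Ttc17 (7.41, nearest 5.04), Cmtm3 (10.49, nearest 5.74), BC064078 (19.43, nearest 10.03) and 1190002F15Rik (69.26, nearest 121.02). In Flt3-ITD replicate 3 they did so for Cmtm3 (38.29, nearest 20.08), Ell2 (1.76, nearest 3.12) and Sept1 (6.69, nearest 22.27). Ptprc stood apart in Flt3-ITD replicate 1 (125.76, nearest 156.37) and Pisd-ps3 in Flt3-ITD replicate 2 (30.86, nearest 50.34). The median log2 CPM of primary granule genes was low in Flt3+/+ replicate 3 (7.28, nearest 8.02) and in Flt3-ITD replicate 2 (7.54, nearest 8.27), and that of endothelial and stromal genes was high in Flt3-ITD replicate 2 (2.48, nearest 1.21), where Cxcl12 was at 25.87 RPKM beside 1.33 or less in the other 7.

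The genotype difference of Socs2 was unlike that in ECs (3.56, edgeR, adjusted p = 0.00329) and in MSCs (3.66, edgeR, adjusted p = 0.00214).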

How the results depend on the processing

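The 2 called genes were 327 by DESeq2 and 327 when either tool sufficed, 146 by the edgeR exact test, 0 with an immediate-early covariate and 0 with a block of replicates 1 and 2 against 3 and 4; the cause was not tested. With a replicate block there were 0 calls and 1148 genes at an unadjusted p below 0.05, beside 1447. The labels do not say whether the numbers pair the samples. Leaving out a library gave 0 to 1 calls, 968 to 1763 genes at an unadjusted p below 0.05 and 1166 to 1888 genes without overlap, which rises by construction with fewer samples, beside 934. It gave 2 to 10 interactions with ECs, the most without Flt3+/+ replicate 1, and 1 to 3 with MSCs; DESeq2 gave 517 and 388. Added after seeing the data, replicates 1 and 2 alone gave 0 calls and 871 genes at an unadjusted p below 0.05, and replicates 3 and 4 alone 940 and 2959. RLE scaling and no filter kept the total counts within 1.5 times; by direction, genes lower at an unadjusted p below 0.05 went from 696 to 1052 with no filter, which tests more genes. The precision is limited by 4 libraries of 200 cells a genotype and a coefficient of variation of 0.484, and what passes depends on the tool.

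Some log2 differences, none of them called, changed sign. In replicates 1 and 2 alone they were 0.067 for Serpinb1a, 0.24 for Car2, 0.27 for Hdc, 0.53 for Col1a2, 0.75 for Ppp1r15a, -0.31 for Bcl2a1d, -0.72 for Bcl2a1a, 0.32 for Bcl2l1, 0.0044 for Slc2a3, -0.020 for Dhcr7, 0.17 for Gata1, 0.13 for Ddx3y and -0.086 for Eif2s3y. In replicates 3 and 4 alone they were -0.12 for Cybb, -0.58 for Cxcl12, 0.026 for Jund and 0.28 for Nhp2. For Eif2s3y they were -0.018 with the replicate block, -0.068 with the immediate-early covariate and -0.00103 with the block of pairs. Leaving out 1 library in turn gave -0.036 to 0.0454 for Cybb, -0.734 to 0.148 for Col1a2, -0.0629 to 2.01 for Bcl2a1d, -0.265 to 2.17 for Bcl2a1a, -0.262 to 0.00707 for Ddx3y and -0.0691 to 0.144 for Eif2s3y.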
